A study of Mus musculus with 18 samples.

Results

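The expression of 9 genes of the complement system was followed in mouse dura: the C1q chains C1qa, C1qb and C1qc, the classical pathway proteins C1ra and C4b, the alternative pathway protease Cfb, the central component C3, and the receptors C3ar1 and C5ar1. They were chosen by name, with earlier results of these data known, and each is represented by the probe set that carries its symbol and no other. By that rule 8 of the 9 genes were measured, each by 1 probe set, out of 21640 probe sets with exactly 1 symbol (19937 genes). No probe set carried C3 under the rule, and C3 was not analysed here.

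The dura, the outer membrane around the brain, was taken from 18 male mice and run on 1 Affymetrix array per mouse, with 3 mice in each of 6 groups. Mast cell-engrafted mice (WBB6F1-KitW/W-v, given mast cells intravenously 8 to 10 weeks before), mast cell-deficient mice (WBB6F1-KitW/W-v) and wild-type mice (WBB6F1-Kit+/+) were each studied after stroke and naive. Stroke was a 30-minute closure of the middle cerebral artery with a filament, with the dura removed 2 days later, and the naive mice were matched in age, in a study of mice aged 17 to 21 weeks at surgery. The study asked how stroke changes meningeal gene expression and how mast cells influence it. The Kit mutations of the deficient mice are also carried by the engrafted mice, and Kit serves other cells besides mast cells, among them blood progenitors and melanocytes. Sham-operated mice were not part of the data used here, and any difference between stroke and naive dura therefore includes the surgery. Values are log2 levels, on which 1 unit is a doubling. A probe set's level cannot be set against another's, so only differences are compared between genes.

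Complement is a cascade of plasma and tissue proteins that tags targets and recruits leukocytes. In its classical pathway C1q binds the target and activates the proteases C1r and C1s, which cleave C4 and C2. The alternative pathway uses factor B, the product of Cfb, to cleave C3, and both routes release the fragments C3a and C5a, which act on the receptors C3ar1 and C5ar1 of myeloid and other cells. Unlike most components, which the liver supplies to blood, C1q is made largely by macrophages, including those that reside in the borders of the brain, and by microglia.

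The 18 arrays had medians of 7.77 to 7.91 log2 units, in a table that spans 3.42 to 14.06. None of the 8 measured genes was below the lower quartile of its arrays in the mean (quartiles of 6.09 to 6.24). Precision is limited by the number of mice, with a median standard error (SE) of 0.10 for 3 mice against 3. In 5 of the 18 arrays Ttr, a choroid plexus gene, lay between 9.03 and 10.17, against 13.03 to 13.78 in the other arrays. These were engrafted naive mouse 3, deficient stroke mouse 2, deficient naive mice 1 and 3, and wild-type stroke mouse 2, and calls of named genes that were lost without them are named as such. Mast cell markers followed the labels: the log2 sum of 9 of them was 11.7 to 11.9 after stroke and 11.2 to 12.7 in naive engrafted dura, 10.1 to 10.2 and 10.1 to 10.3 in deficient dura, and 11.2 to 11.6 and 11.8 to 12.05 in wild-type dura.

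The C1q genes lie side by side on mouse chromosome 4 within 18719 bases (GRCm38.p6): C1qb at chr4:136880126-136886200, C1qc at chr4:136889801-136892936 and C1qa at chr4:136895916-136898844. C4b (chr17:34728139-34743902) and Cfb (chr17:34856374-34862514) lie on chromosome 17 within 134376 bases of each other's far ends. C3ar1 (chr6:122847140-122856157) and C1ra (chr6:124512621-124523440) are on chromosome 6, and C5ar1 (chr7:16246743-16259540) is on chromosome 7. The probe sets are 10517517 (C1qa), 10517508 (C1qb), 10517513 (C1qc), 10541678 (C1ra), 10450242 (C4b), 10450325 (Cfb), 10547657 (C3ar1) and 10560242 (C5ar1). C4b has the near-identical neighbour C4a, and C1ra the near-identical C1rb, so signal from the paralogs may be shared and the values of C4b and C1ra are uncertain to that extent.

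The 250 bases before the RefSeq start site (GRCm38.p6) are shown for the C1q chains that the promoter table holds, because these neighbours were higher together after stroke. Capitals mark the core of the binding motif of PU.1, a transcription factor of myeloid cells, spelled GAGGAA and searched on both strands. C1qb is at chr4:136886201-136886450 and C1qc at chr4:136892915-136893164, both read from the minus strand. The windows of C1qc and of C5ar1 lie partly within the gene positions given above, so the start used there is not the outer end of the gene.
C1qb: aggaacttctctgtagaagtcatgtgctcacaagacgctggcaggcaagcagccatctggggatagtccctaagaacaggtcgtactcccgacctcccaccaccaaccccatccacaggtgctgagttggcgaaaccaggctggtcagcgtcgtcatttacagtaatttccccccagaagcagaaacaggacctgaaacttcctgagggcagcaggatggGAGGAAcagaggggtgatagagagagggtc
C1qc: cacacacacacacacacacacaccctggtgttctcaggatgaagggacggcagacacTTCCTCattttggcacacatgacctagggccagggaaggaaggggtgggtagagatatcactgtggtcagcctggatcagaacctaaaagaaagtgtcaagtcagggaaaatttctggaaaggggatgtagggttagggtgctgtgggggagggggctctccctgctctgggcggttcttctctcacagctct
The core begins 30 bases before the start in C1qb and, on the opposite strand, 193 bases before it in C1qc. It does not occur in these windows of C3ar1, C5ar1 and C1ra, and 23.3% of 32851 promoters of the same length hold it. TTCNNNGAA, the STAT site, had no match in any of the 5 windows searched, against 7.02% of all promoters. A match describes letters and not binding.

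Stroke was followed by higher levels of most of the measured complement genes. C1qa, C1qb, C1qc, C3ar1, C5ar1 and C4b had a higher mean in stroke than in naive dura in all 3 categories, C1ra had a lower one in all 3, and Cfb differed by little and in both directions. Averaged over the 3 categories, 6 of 8 genes rose and 1 fell past an adjusted p of 0.05 (limma, Benjamini-Hochberg over 21640 probe sets), against 8.05% of all probe sets that rose and 5.42% that fell. Within categories, 2 genes rose in engrafted dura (C3ar1 and C4b), 0 in deficient dura, and 4 in wild-type dura (C1qb, C3ar1, C5ar1 and C4b), and 0 fell in any. The background was 0.878% higher and 0.236% lower in engrafted dura, 0.125% and 0.125% in deficient dura, and 6.24% and 4.63% in wild-type dura. In deficient dura 5 of the 8 had an unadjusted p under 0.05 by limma (C1qa, C1qb, C3ar1 and C4b higher, C1ra lower), as did 2918 of all probe sets, where 1082 are expected if nothing differed. The median difference over the 8 genes was 0.27 in engrafted, 0.23 in deficient and 0.31 in wild-type dura, and over all probe sets -0.01, 0.04 and 0.01. Without the 5 arrays low in Ttr the medians of the 8 genes were 0.32, 0.37 and 0.26, in the reverse order. The deficient value then rests on 1 naive array, that of mouse 2, which was the lowest of the 3 naive deficient mice in each of the 8 genes. The order of the categories by this median is therefore not settled. A second quantile normalization gave 1869 higher and 873 lower probe sets in wild-type dura, against 1351 and 1001 without it, and left the 4 calls in wild-type dura in place. The average uses the same arrays as the comparisons within categories, and is no separate evidence.

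**Figure D1:**
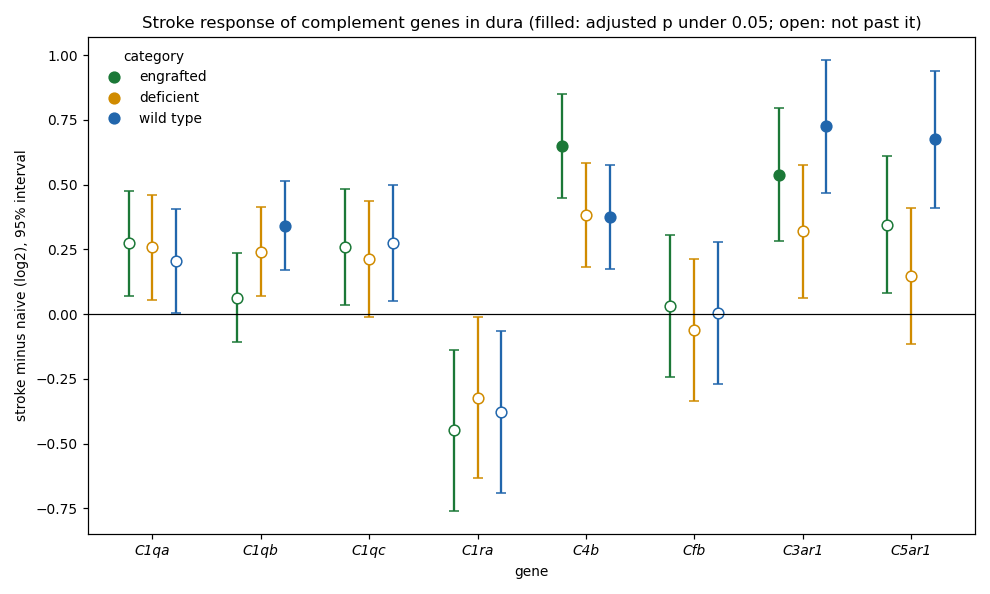
Log2 difference, stroke minus naive, of the 8 measured complement genes (horizontal axis) in engrafted, deficient and wild-type dura, with 95% intervals from limma (3 mice against 3). Filled points are past an adjusted p of 0.05, and the points of C1ra lie below 0 in all 3 categories while those of Cfb lie between -0.06 and 0.03.

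The C1q chains were modestly higher after stroke. C1qb is the B chain of the C1q subunit, which holds 1 chain of each kind. Its log2 level was 11.55, 11.64 and 11.60 after stroke in engrafted mice, against 11.59, 11.45 and 11.55 in naive engrafted mice. In deficient mice it was 11.54, 11.54 and 11.68 after stroke, against 11.30, 11.29 and 11.44 in naive mice. In wild-type mice it was 11.41, 11.51 and 11.41 after stroke, against 11.28, 10.94 and 11.08 in naive mice. All stroke values were above all naive values in the deficient and wild-type mice, whereas in engrafted mice naive mice 1 and 3 lay among the stroke values and naive mouse 2 below them. The difference was 0.06 ± 0.08 in engrafted (SE, adjusted p = 0.850), 0.24 ± 0.08 in deficient (adjusted p = 0.250) and 0.34 ± 0.08 in wild-type dura (adjusted p = 0.0134), the last a 1.27-fold rise. The wild-type call was lost without naive mouse 2 (adjusted p = 0.0611), without stroke mouse 2 (adjusted p = 0.0563) and without the 5 arrays low in Ttr (adjusted p = 0.107).

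C1qa and C1qc, the A and C chains, showed about the same difference in every category. C1qa was 10.69, 10.66 and 10.67 after stroke in engrafted mice, against 10.38, 10.33 and 10.49 in naive engrafted mice. It was 10.62, 10.63 and 10.53 after stroke in deficient mice, against 10.36, 10.09 and 10.56 in naive deficient mice, and 10.46, 10.58 and 10.42 after stroke in wild-type mice, against 10.36, 10.32 and 10.16 in naive wild-type mice. The groups were apart in engrafted and wild-type dura, and in deficient dura naive mouse 3 reached the stroke values. The 3 differences of C1qa were 0.27, 0.26 and 0.20, each ± 0.09 (adjusted p = 0.238, 0.281 and 0.184), in engrafted, deficient and wild-type dura.
C1qc was 11.10, 11.07 and 11.17 after stroke in engrafted mice, against 10.83, 10.75 and 10.99 in naive engrafted mice. It was 11.05, 11.07 and 10.95 in deficient stroke mice, against 10.88, 10.59 and 10.96 in naive deficient mice, and 10.87, 10.99 and 10.71 in wild-type stroke mice, against 10.78, 10.51 and 10.46 in naive wild-type mice. Only in the engrafted mice were the C1qc groups apart, and its differences were 0.26, 0.21 and 0.28, each ± 0.11 (adjusted p = 0.347, 0.390 and 0.107). Averaged over the categories, C1qa rose by 0.25 ± 0.05 (1.19-fold, adjusted p = 0.0074), C1qb by 0.22 ± 0.05 (1.16-fold, adjusted p = 0.0062) and C1qc by 0.25 ± 0.06 (1.19-fold, adjusted p = 0.0128). Without the 5 arrays low in Ttr the averaged rise of C1qb was 0.24 with an adjusted p of 0.0505, while those of C1qa and C1qc stayed past the threshold. More cells of a type and more RNA per cell cannot be told apart in these whole tissue samples, here or in the results that follow.

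Of the remaining classical pathway members, C4b rose and C1ra fell. C4b is the mouse C4 component, whose larger fragment attaches to the target. Its log2 level was 10.37, 10.18 and 10.39 after stroke in engrafted mice, against 9.65, 9.61 and 9.74 in naive engrafted mice. It was 10.00, 10.00 and 9.99 after stroke in deficient mice, against 9.66, 9.39 and 9.78 in naive deficient mice, and 10.03, 10.02 and 10.23 after stroke in wild-type mice, against 9.82, 9.72 and 9.62 in naive wild-type mice. Every stroke value was above every naive value of its category. The difference was 0.65 ± 0.09 in engrafted dura (1.57-fold, adjusted p = 0.0035), 0.38 ± 0.09 in deficient dura (1.30-fold, adjusted p = 0.139) and 0.37 ± 0.09 in wild-type dura (1.30-fold, adjusted p = 0.0194). The deficient and wild-type differences were near-equal, with unadjusted p of 0.0010 and 0.0012, and fell on opposite sides of the threshold after adjustment over all probe sets. The wild-type call was lost without naive mouse 2 (adjusted p = 0.0514), naive mouse 3 (adjusted p = 0.0890) or stroke mouse 3 (adjusted p = 0.0904). The engrafted call held without any 1 array (adjusted p at most 0.0252), and the averaged rise was 0.47 ± 0.05 (1.38-fold, adjusted p = 4.5e-05).

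C1ra encodes C1r, the protease that C1q switches on to cleave C1s. It was 8.30, 8.64 and 8.69 after stroke in engrafted mice, against 9.02, 8.92 and 9.04 in naive engrafted mice. In deficient mice it was 8.82, 8.77 and 8.67 after stroke, against 8.96, 8.93 and 9.34 in naive mice. In wild-type mice it was 8.55, 8.35 and 8.49 after stroke, against 8.96, 9.09 and 8.47 in naive mice. All stroke values were below all naive values in engrafted and deficient mice, and in wild-type mice only naive mouse 3 lay among the stroke values. The differences were -0.45, -0.32 and -0.38, each ± 0.15, in engrafted, deficient and wild-type dura (adjusted p = 0.200, 0.360 and 0.114). Averaged over the categories C1ra fell by 0.38 ± 0.08 on the log2 scale (adjusted p = 0.0071), a call that held without any 1 array and not without the 5 arrays low in Ttr (-0.31, adjusted p = 0.111). In wild-type dura the fall was past the threshold without naive mouse 3 (-0.56, adjusted p = 0.0183).

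Cfb, factor B of the alternative pathway, showed no difference past the threshold after stroke. It was 8.77, 9.13 and 8.78 after stroke in engrafted mice, against 8.82, 8.77 and 8.998 in naive engrafted mice. It was 8.74, 9.003 and 8.66 in deficient stroke mice, against 8.89, 8.61 and 9.10 in naive deficient mice, and 8.56, 8.65 and 8.54 in wild-type stroke mice, against 8.74, 8.51 and 8.50 in naive wild-type mice. The groups overlapped in every category. The differences were 0.03 in engrafted (95% interval -0.24 to 0.30), -0.06 in deficient (-0.34 to 0.21) and 0.00 in wild-type dura (-0.27 to 0.28), and -0.01 averaged over the categories (-0.17 to 0.15, adjusted p = 0.955).

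The anaphylatoxin receptors had their largest stroke differences in wild-type dura. C3ar1, the receptor of C3a, was 10.47, 10.31 and 10.28 after stroke in engrafted mice, against 9.85, 9.63 and 9.96 in naive engrafted mice. It was 10.08, 10.07 and 10.09 after stroke in deficient mice, against 9.79, 9.59 and 9.91 in naive deficient mice. It was 10.53, 10.40 and 10.14 after stroke in wild-type mice, against 9.78, 9.73 and 9.39 in naive wild-type mice. Every stroke value was above every naive value of the whole series. The difference was 0.54 ± 0.12 in engrafted dura (1.45-fold, adjusted p = 0.0428), 0.32 ± 0.12 in deficient dura (1.25-fold, adjusted p = 0.295) and 0.73 ± 0.12 in wild-type dura (1.65-fold, adjusted p = 0.0013). The engrafted call was lost when any 1 of 11 arrays was left out (adjusted p up to 0.244), namely each of the 3 engrafted stroke arrays, engrafted naive mice 1 and 2, the 3 deficient stroke arrays, deficient naive mouse 1, wild-type stroke mouse 2 and wild-type naive mouse 2. It was also lost without the 5 arrays low in Ttr (0.61, adjusted p = 0.0910). The wild-type call held without any 1 array (adjusted p at most 0.0080), and the averaged rise was 0.53 ± 0.07 (1.44-fold, adjusted p = 0.0001).

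C5ar1, the receptor of C5a on neutrophils, monocytes and macrophages, was 8.30, 8.59 and 8.66 after stroke in engrafted mice, against 8.23, 8.00 and 8.28 in naive engrafted mice. In deficient mice it was 8.38, 8.30 and 8.27 after stroke, against 8.24, 8.00 and 8.27 in naive mice. In wild-type mice it was 8.81, 8.81 and 8.53 after stroke, against 8.27, 8.03 and 7.83 in naive mice. The groups were apart in engrafted and wild-type mice and met in deficient mice. The difference was 0.67 ± 0.12 in wild-type dura (1.60-fold, adjusted p = 0.0026), 0.35 ± 0.12 in engrafted dura (1.27-fold, adjusted p = 0.259) and 0.15 ± 0.12 in deficient dura (1.11-fold, adjusted p = 0.590). The wild-type call held without any 1 array (adjusted p at most 0.0172), and the averaged rise was 0.39 ± 0.07 (1.31-fold, adjusted p = 0.0019).

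**Figure D2:**
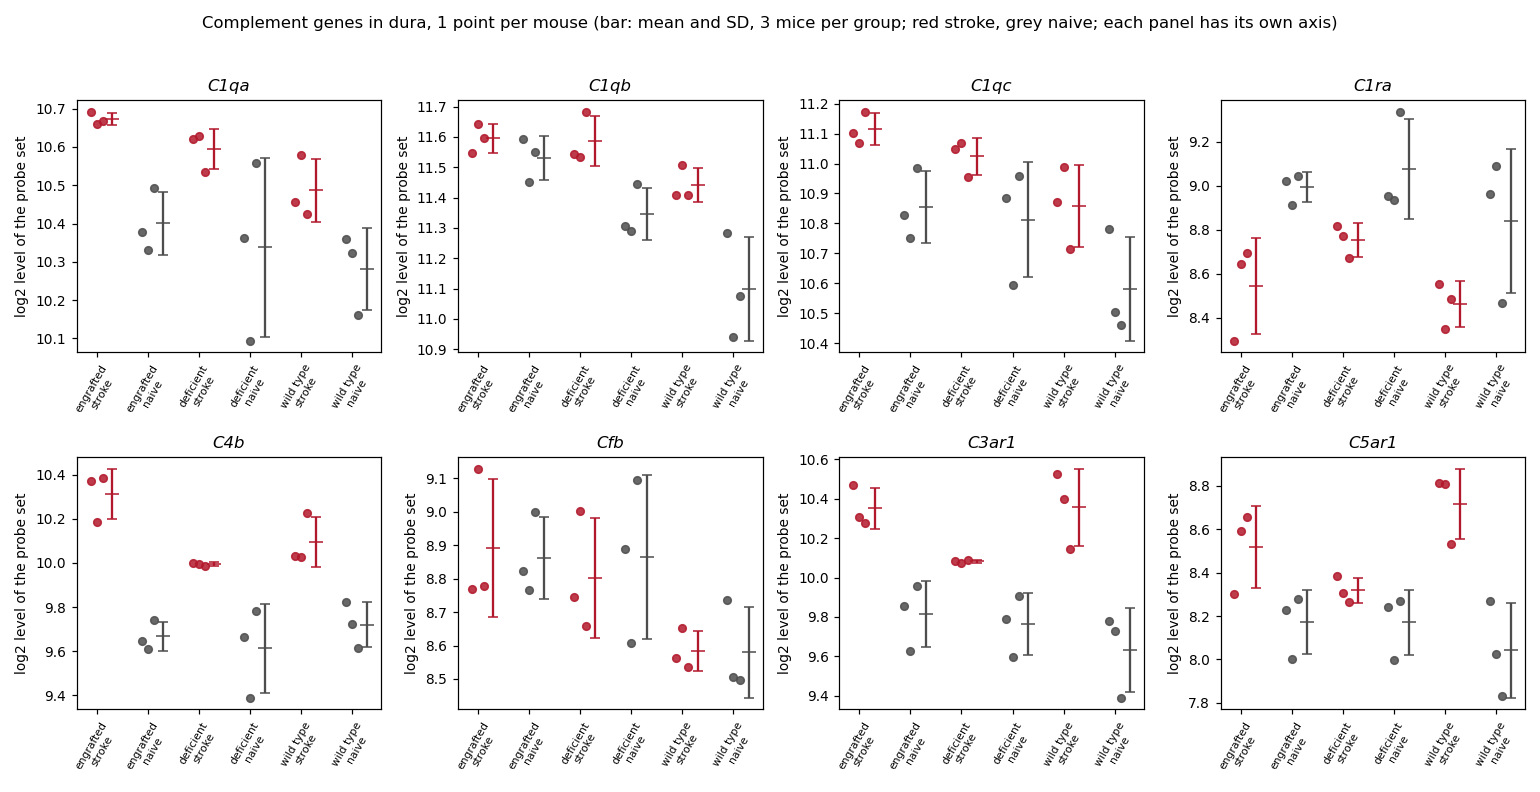
Log2 level of each of the 8 probe sets by group, 1 point per mouse, with mean and SD of 3 mice; each panel has its own vertical axis, and stroke is drawn left of naive in each category. C3ar1 lies between 10.07 and 10.53 in stroke mice and between 9.39 and 9.96 in naive mice, and C1ra is the gene whose naive means are the higher ones.

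Whether the stroke response differed between categories was tested as the difference of the responses, and 0 of 8 genes passed in any of the 3 such tests. In the engrafted minus deficient test 0.00462% of all probe sets passed and 2097 had an unadjusted p under 0.05, as did 0 of 8 genes. In the engrafted minus wild-type test 0.106% of all probe sets passed and 2855 had such a p. Of the 8 genes 1 had such a p, C1qb, at -0.28 (95% interval -0.52 to -0.03, adjusted p = 0.323). In the deficient minus wild-type test 0.351% of all probe sets passed and 1591 had such a p, as did 2 of 8 genes. These were the receptors, C5ar1 at -0.53 (95% interval -0.90 to -0.15, adjusted p = 0.357) and C3ar1 at -0.41 (-0.77 to -0.04, adjusted p = 0.578). For C4b the engrafted response exceeded the deficient one by 0.27 (-0.02 to 0.55, adjusted p = 0.524). The calls made in one category and not in another therefore do not show that the responses differ.

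The categories were also compared directly, and again 0 of 8 genes passed in any of 6 comparisons. In stroke dura the share of all probe sets past the threshold was 0.0277% for engrafted against deficient, 0.411% for engrafted against wild type and 2.61% for deficient against wild type. C5ar1 had a difference of -0.40 ± 0.12 in deficient against wild-type stroke dura, with no overlap (adjusted p = 0.118). C3ar1 had a difference of -0.27 ± 0.12 there, also without overlap (adjusted p = 0.310). These 2 were the genes with an unadjusted p under 0.05 in that comparison, and C3ar1 and C4b were those in engrafted against deficient stroke dura, at 0.27 ± 0.12 (adjusted p = 0.778) and 0.32 ± 0.09 (adjusted p = 0.687). C1qc, Cfb and C4b had such a p in engrafted against wild-type stroke dura, with differences of 0.26, 0.31 and 0.22 (adjusted p = 0.335, 0.351 and 0.369). Of all probe sets, 1359 had such a p in engrafted against deficient stroke dura, 2502 in engrafted against wild type and 3122 in deficient against wild type. In each comparison 1082 are expected if nothing differed.

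In naive dura the shares past the threshold were 0.0185% for engrafted against deficient, 0% for engrafted against wild type and 0.0185% for deficient against wild type. In the same order, 1, 3 and 3 of the 8 genes had an unadjusted p under 0.05 by limma. So did 1016, 4143 and 1476 of all probe sets, where 1082 are expected in each comparison if nothing differed. C1qb was the gene in the comparison of engrafted with deficient mice, at 0.19 ± 0.08 (adjusted p = 0.917). Against naive wild type, C1qb differed by 0.43 ± 0.08 in engrafted mice (adjusted p = 0.0904) and by 0.25 ± 0.08 in deficient mice (adjusted p = 0.653), with no overlap in either. In the same comparisons C1qc differed by 0.27 and 0.23, and Cfb by 0.28 and 0.28 (adjusted p of 0.193 to 0.715). Both comparisons use the same 3 naive wild-type mice, which were the lowest of the 6 groups in the mean of C1qa, C1qb, C1qc, C3ar1, C5ar1 and Cfb. In these wild-type mice Ttr was high on all 3 arrays, whereas 1 of 3 naive engrafted and 2 of 3 naive deficient arrays were low in it. Without the 5 low arrays the median difference of the 8 genes was -0.01 in deficient against wild-type naive dura, against 0.18 with them, and 0.19 in engrafted against deficient naive dura, against 0.05 with them. That leaves 1 naive deficient array. In engrafted against wild-type naive dura the median was 0.12 without them and 0.17 with them. Over the 18 arrays the mean of the C1q chains correlated by -0.64 with the choroid plexus marker sum within groups and by -0.36 without removal of group means (Pearson, a description). In the same order, its correlations were 0.75 and 0.67 with the resident macrophage sum and 0.58 and 0.72 with the monocyte sum. With the neutrophil sum they were 0.39 and 0.35.

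Ordered by group mean, C3ar1 fell into 3 tiers that did not overlap: wild-type stroke (10.36) and engrafted stroke (10.35), then deficient stroke (10.08), then the naive groups (9.81 in engrafted, 9.76 in deficient and 9.63 in wild-type mice). C4b was highest in engrafted stroke (10.31) and wild-type stroke (10.09), which overlapped, followed by deficient stroke (9.99) and the naive groups (9.72 in wild-type, 9.67 in engrafted and 9.61 in deficient mice), which overlapped each other. For C5ar1, C1ra and most steps of C1qb, neighbouring groups overlapped. The mean of the 3 C1q chains was 11.13 ± 0.02 in engrafted stroke, 10.93 ± 0.08 in engrafted naive, 11.07 ± 0.01 in deficient stroke, 10.83 ± 0.16 in deficient naive, 10.93 ± 0.09 in wild-type stroke and 10.65 ± 0.13 in wild-type naive dura (SD, n = 3 each).

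Of 46 further complement genes listed by role, 43 were analysed here. In stroke against naive, 2 rose and 0 fell in engrafted dura, 1 rose and 0 fell in deficient dura, 8 rose and 4 fell in wild-type dura, and 13 rose and 4 fell in the average, to be read against the shares of all probe sets given above. Without the 5 arrays low in Ttr the counts were 2 and 0 in engrafted, 0 and 0 in deficient, 6 and 3 in wild-type dura, and 7 and 1 in the average.

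Among the 8 other receptors, 2 rose in engrafted, 0 in deficient, 5 in wild-type dura and 6 in the average. Vsig4, the macrophage receptor that binds fragments of C3, had the largest stroke difference of the complement genes measured in each category. It was 7.56, 7.54 and 7.30 after stroke in engrafted mice, against 5.83, 5.78 and 5.53 in naive engrafted mice. It was 7.01, 6.24 and 6.79 in deficient stroke mice, against 5.84, 5.68 and 6.16 in naive deficient mice, and 7.78, 8.02 and 8.49 in wild-type stroke mice, against 6.35, 6.20 and 5.99 in naive wild-type mice. All stroke values exceeded the naive values of their category, and the naive values lay near or below the lower quartile of the arrays. The differences were 1.76 ± 0.20 in engrafted (3.38-fold, adjusted p = 0.0006), 0.79 ± 0.20 in deficient (1.73-fold, adjusted p = 0.146) and 1.92 ± 0.20 in wild-type dura (3.78-fold, adjusted p = 2.3e-05). In stroke dura Vsig4 was lower in deficient than in wild-type mice by 1.42 ± 0.20 (adjusted p = 0.0011), while the difference of the 2 responses, -1.13 ± 0.28, did not pass (adjusted p = 0.138).

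Itgam and Itgb2, the chains of complement receptor 3 on neutrophils, monocytes and macrophages, rose in wild-type dura by 0.81 ± 0.13 and 0.82 ± 0.15 (adjusted p = 0.0012 and 0.0028). In engrafted dura Itgam rose by 0.77 ± 0.13 (adjusted p = 0.0113) and Itgb2 had a difference of 0.64 ± 0.15 (adjusted p = 0.0573), and in deficient dura the differences were 0.20 ± 0.13 and 0.27 ± 0.15 (adjusted p = 0.504 and 0.444). Itgam was lower in deficient than in wild-type stroke dura by 0.63 ± 0.13 (adjusted p = 0.0187), a call lost without the low-Ttr arrays and without wild-type stroke mouse 1 or 2 or deficient stroke mouse 3 (adjusted p up to 0.101). The engrafted call of Itgam was lost without naive mouse 1 or 2 or stroke mouse 2 (adjusted p up to 0.0844). C5ar2, the other receptor of C5a, rose in wild-type dura by 0.55 ± 0.12 (adjusted p = 0.0062), and C1qbp, a mitochondrial protein that also binds C1q, by 0.27 ± 0.07 (adjusted p = 0.0320). Both of these wild-type calls were lost without the low-Ttr arrays, and that of C1qbp also without naive mouse 2 or 3 or stroke mouse 2 or 3 (adjusted p up to 0.129). Itgax, the chain of complement receptor 4, passed in the average alone of the 4 stroke comparisons (0.21 ± 0.05, adjusted p = 0.0123).

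The regulators and the alternative pathway each held 1 gene with a rise in wild-type dura. Cfi, the protease that inactivates C3b and C4b, was 6.29, 6.69 and 6.49 after stroke in engrafted mice, against 5.96, 6.26 and 6.08 in naive engrafted mice. It was 6.50, 6.44 and 6.26 in deficient stroke mice, against 6.01, 5.92 and 6.06 in naive deficient mice, and 7.15, 6.94 and 7.39 in wild-type stroke mice, against 5.76, 6.17 and 5.76 in naive wild-type mice. The groups were apart in every category, and the wild-type stroke mice were above all others. As for Vsig4, the naive values lay near or below the lower quartile of the arrays. The differences were 0.39, 0.40 and 1.26, each ± 0.14 (adjusted p = 0.241, 0.251 and 3.1e-05). Cfi was lower in stroke dura of engrafted than wild-type mice by 0.67 (adjusted p = 0.0437, lost when any 1 of 14 arrays was left out and without the low-Ttr arrays) and of deficient than wild-type mice by 0.76 (adjusted p = 0.0065, lost without the low-Ttr arrays). The difference between the deficient and wild-type responses was -0.86 ± 0.19 (adjusted p = 0.0838) and that between engrafted and wild type -0.88 ± 0.19 (adjusted p = 0.124). Cfp, properdin, which stabilises the alternative convertase, rose in wild-type dura by 0.76 ± 0.13 (adjusted p = 0.0015), beside differences of 0.37 in engrafted and 0.38 in deficient dura. Of the 13 regulators, Vtn, vitronectin, and Susd4 fell in wild-type dura by 0.53 ± 0.09 (adjusted p = 0.0022) and 0.62 ± 0.17 (adjusted p = 0.0298), and Vtn also fell in the average. The call of Susd4 was lost without naive mouse 2 or 3 or stroke mouse 1 or 3 (adjusted p up to 0.122).

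Among the 14 other classical and lectin pathway genes, 4 rose and 3 fell in the average. C1s1, the protease partner of C1r, fell like C1ra, by 0.42 ± 0.12 (adjusted p = 0.0252), with differences of -0.34, -0.53 and -0.39 in engrafted, deficient and wild-type dura. C2, the substrate of C1s, fell in wild-type dura by 0.56 ± 0.11 (adjusted p = 0.0033), beside -0.05 in both engrafted and deficient dura, and it was higher in deficient than in wild-type stroke dura by 0.42 ± 0.11 (adjusted p = 0.0477, lost when any 1 of 12 arrays was left out and without the low-Ttr arrays). Fcna, ficolin A, a lectin pathway recognition protein made by macrophages, was the 1 complement gene past the threshold in deficient dura (0.65 ± 0.13, adjusted p = 0.0482), a call lost when any 1 of 15 arrays was left out and without the low-Ttr arrays. Fcna also rose in wild-type dura by 0.54 ± 0.13 (adjusted p = 0.0127) and in the average by 0.55 ± 0.07 (adjusted p = 0.0002). C4a rose by 0.26 ± 0.05 in the average (adjusted p = 0.0044), as did the ficolin Fcnb by 0.37 ± 0.11 (adjusted p = 0.0429) and the C1r-like protease C1rl by 0.19 ± 0.06 (adjusted p = 0.0380). Colec12, a scavenger receptor of the collectin family, fell in wild-type dura by 0.27 ± 0.07 (adjusted p = 0.0235) and in the average, and its wild-type call was lost without naive mouse 1 or 2 or stroke mouse 2 or 3 (adjusted p up to 0.0842) and without the low-Ttr arrays (adjusted p = 0.111). The wild-type call of Fcna was lost without naive mouse 2 or stroke mouse 2 or 3 (adjusted p up to 0.0569). Of the averaged calls among the 43 further genes, those of C1rl, C1s1, C2, Fcnb and Vtn were lost when some 1 array was left out (11, 4, 6, 10 and 8 of the 18 arrays). Without the low-Ttr arrays these and the averaged calls of Colec12, C6, C5ar2, Itgax and C1qbp were lost. None of the averaged falls was thus kept. The averaged fall counted above without those arrays belongs to a regulator that was not called with them. Of the 7 terminal pathway genes, C6 passed in the average (0.26 ± 0.06, adjusted p = 0.0104), with a mean level below the lower quartile, and Hc, C7 and C9 were below it on every array.

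**Figure D3:**
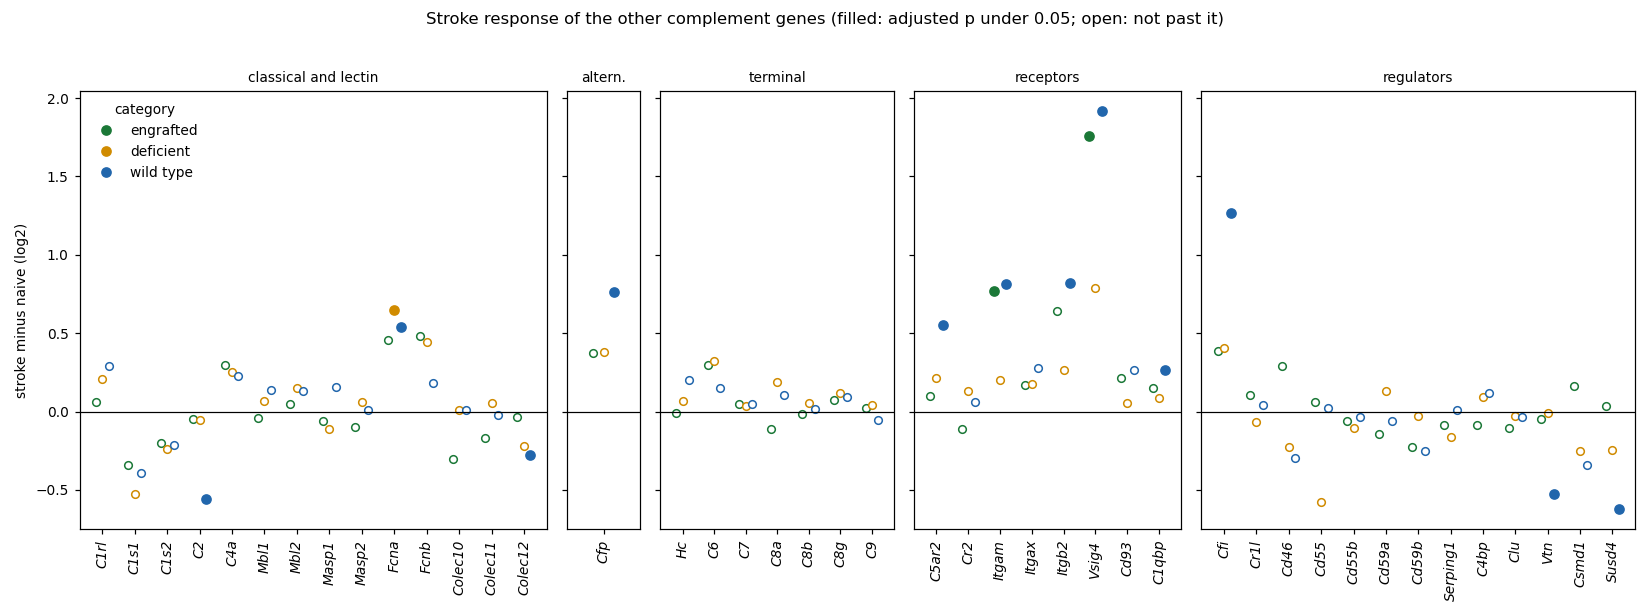
Log2 difference, stroke minus naive, of the 43 further complement genes measured, in panels by role, for engrafted, deficient and wild-type dura; filled points are past an adjusted p of 0.05. Vsig4 has the largest differences, at 1.76 in engrafted and 1.92 in wild-type dura, and the 7 terminal pathway genes have no filled point.

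Markers of cells that carry or make these proteins, and of brain cells, were compared in the same way. Their counts are to be read against the shares of all probe sets, which differed widely between categories. The shares that rose were 0.878% in engrafted, 0.125% in deficient and 6.24% in wild-type dura, and 8.05% in the average. Those that fell were 0.236%, 0.125%, 4.63% and 5.42%. Of 6 monocyte markers, 2 rose in engrafted, 0 in deficient and 3 in wild-type dura, and 6 in the average. Their log2 sum was 13.42 to 13.57 after stroke and 13.09 to 13.26 in naive engrafted mice, 13.22 to 13.29 and 12.94 to 13.21 in deficient mice, and 13.37 to 13.48 and 12.998 to 13.18 in wild-type mice. The stroke groups were thus above the naive groups in each category, with the deficient stroke group the lowest of the stroke groups, as for C3ar1. Of 7 neutrophil markers 1, 0 and 0 rose in engrafted, deficient and wild-type dura, and 6 in the average, with sums of 12.26 to 13.42 after stroke and 10.93 to 12.21 in naive engrafted mice. In deficient mice these were 11.48 to 11.78 and 10.27 to 10.77, and in wild-type mice 11.88 to 12.91 and 11.51 to 12.35. Of 12 resident macrophage markers 0, 0 and 2 rose and 0, 0 and 1 fell, and 4 rose and 1 fell in the average. The resident macrophage sum was 13.91 to 14.08 after stroke and 13.78 to 14.001 in naive engrafted mice, 13.83 to 13.92 and 13.70 to 13.98 in deficient mice, and 13.61 to 13.86 and 13.61 to 13.86 in wild-type mice, overlapping within each category. Of 6 microglia markers 1 rose and 1 fell in wild-type dura, and 1 rose and 2 fell in the average. Of 7 neuron markers 4 fell in wild-type dura and 4 in the average. Of 6 astrocyte markers 1 rose and 3 fell in wild-type dura, where their sum was 13.11 to 13.27 after stroke and 13.43 to 13.75 in naive mice, and 1 rose in the average. Of 7 fibroblast markers, which mark cells that make C1r and C1s, 0 passed in any category and 1 fell in the average. The fibroblast sum was 14.72 to 14.86 after stroke and 14.82 to 15.08 in naive engrafted mice, 14.72 to 14.82 and 14.90 to 15.17 in deficient mice, and 14.67 to 15.04 and 14.67 to 14.91 in wild-type mice. It was below the naive range in deficient stroke mice and overlapped in the other categories. Its means after stroke and in naive mice were 14.77 and 14.93 in engrafted, 14.78 and 15.01 in deficient, and 14.83 and 14.80 in wild-type mice. C1ra correlated with this sum by 0.53 within groups and by 0.63 without removal of group means (Pearson, a description). Within groups every measured member correlated with it above 0, from 0.24 for C1qb to 0.78 for C1qa. The part of fibroblasts in the fall of C1ra was not tested. No marker of these 7 lists was below the lower quartile on every array. Without the 5 arrays low in Ttr, 2 monocyte markers rose in wild-type dura, and 2 in engrafted dura and 6 in the average as before. Neutrophil markers then had 3 rises in engrafted dura and 4 in the average. Resident macrophage markers had 1 rise in wild-type dura, and 1 rise and 1 fall in the average. In wild-type dura 0 microglia markers then rose and 1 fell, 3 neuron markers fell, and 0 astrocyte markers passed; in the average 1 microglia marker rose and 1 fell, and 5 neuron markers fell. Marker counts without the low-Ttr arrays are to be read against the totals over all probe sets in that setting, given below. The part of cell numbers in the complement differences was not tested.

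**Figure D4:**
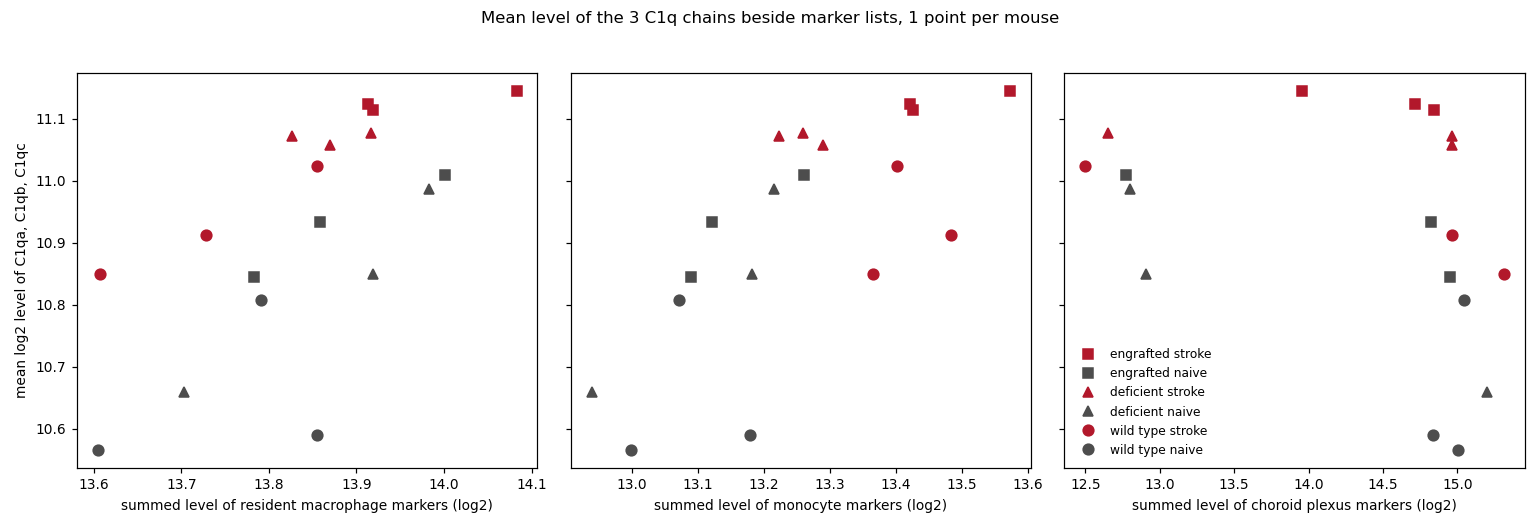
Mean log2 level of C1qa, C1qb and C1qc in each of the 18 mice against the summed log2 level of resident macrophage, monocyte and choroid plexus markers; symbols give the category and colours stroke or naive. The stroke groups of engrafted and deficient mice lie at the top, between 11.06 and 11.15, and the 5 arrays low in choroid plexus markers stand apart at the left of the third panel.

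The genes most like the C1q chains were found by Pearson correlation of log2 levels with the mean of the 3 chains over the 18 arrays, which share groups and tissue makeup, so the values are a description. They were Trim14 (r = 0.905), the nucleoside transporter Slc29a1 (r = 0.904), F13a1, a subunit of coagulation factor XIII (r = 0.903), the carbonyl reductase Cbr2 (r = 0.895) and Tnfrsf14, a receptor of the TNF receptor family (r = 0.895). F13a1 is also on the monocyte marker list. F13a1 averaged 10.69 ± 0.23 in engrafted stroke, 10.40 ± 0.17 in engrafted naive, 10.60 ± 0.08 in deficient stroke, 10.34 ± 0.17 in deficient naive, 10.36 ± 0.11 in wild-type stroke and 10.09 ± 0.03 in wild-type naive dura (SD, n = 3 each). Its group means ran in the same order as those of the C1q mean. F13a1 was picked by correlation over these same arrays, so the shared order is no separate evidence. The C1q means of engrafted naive and wild-type stroke dura were also near-equal, at 10.93 in both.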

How the data were processed

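Dura RNA from 18 mice was hybridised to Affymetrix mouse gene arrays, 1 mouse per array. The deposited table holds log2 values, 1 per probe set and array. The submitters' processing notes list RMA, affy and R 3.0.0, with no role for each. No batch or scan date is given in the sources used here, and none was tested. Of 34760 probe sets, 21640 with exactly 1 gene symbol in the array annotation were tested, 1321 with several symbols and 11799 with none listed were left out of the tests, and 21553 of those tested had their gene identifier in the RefSeq table of GRCm38.p6, the source of positions and promoters. No filter on low values was used, so all 8 measured members were tested. Where a gene has several probe sets, the one with the highest mean represents it.

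In limma 3.58.1 (R 4.3.3), each group had a mean of its own in a fit over the 18 arrays (residual degrees of freedom 12, prior 3.41). It gave 13 comparisons and Benjamini-Hochberg adjustment over all tested probe sets within each, at a threshold of 0.05. P-values measure the spread between mice. The fit was tested on simulated data. Every array in turn was left out, and 9 other settings were tried. Marker sums are log2 of the summed linear levels of a list. The members, the gene lists, the rule for naming genes (each measured further complement gene past the threshold in a stroke comparison, and otherwise the one with the smallest p of its list) and the alternatives were chosen with earlier results of these data known. Python 3.11.15 with pandas 2.3.3 and matplotlib 3.10.9 gave the tables and plots.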

Additional observations from a re-analysis of the deposited data

How the results depend on the processing

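Across 27 alternatives (each of the 18 arrays left out in turn and 9 other settings), 56 results for members in stroke comparisons and in the differences between responses were recomputed. Of 1497 recomputed values, 1454 kept their side of the threshold, 38 lost the call, 5 gained one and 0 reversed a call; the near-zero differences of Cfb changed sign in some settings. In engrafted stroke dura the count of members called, 2, was 1 to 2 with 1 array left out, 1 with the replicate block, with all probe sets, without the 5 arrays lowest in Ttr and with only the groups compared, and 0 with a minimum change of 1.2-fold. In deficient stroke dura it was 0, and 3 with array weights (C1qa, C1qb and C4b). In wild-type stroke dura it was 4, and 2 to 5 with 1 array left out, 2 with only the groups compared, 3 without the low-Ttr arrays or dim probe sets and 0 with the minimum change. In the average it was 7, and 5 without the low-Ttr arrays, 6 without dim probe sets and 0 with the minimum change. Engrafted against wild-type naive dura had 0, and 0 to 1 with 1 array left out (1 without wild-type naive mouse 1) and 1 with array weights, and deficient against wild-type stroke dura had 0, and 1 with array weights. Why these counts moved was not tested, except that the minimum change sets a stricter test and fits with fewer arrays leave less replication; without the low-Ttr arrays naive deficient dura keeps 1 array, assumed to vary like the other groups. The filter on dim probe sets left C5ar1 without a value. Using another probe set of a member could not be run, since each had 1 under the rule, nor could likeness to C3. For C1ra, 1 further probe set carries its symbol beside others, and the rule left it out.

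The replicate numbers did not pair the mice: arrays of the same number correlated in their deviations from the group means by 0.01, 0.15 and 0.60 in engrafted, -0.00, -0.30 and -0.39 in deficient and -0.18, 0.05 and 0.03 in wild-type mice. The replicate block left 1 member called in engrafted dura and changed no other count of members called.

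Counts over all probe sets moved more. Stroke in engrafted dura had 241 calls, 60 to 396 with 1 array left out, 146 with the block, 149 without dim probe sets, 394 with array weights, 152 with all probe sets, 29 with the minimum change, 98 without the low-Ttr arrays and 33 with only the groups compared. Stroke in deficient dura had 54, and 8 to 56, 1326 with array weights, 2, 15 and 1 in the last 3 settings. Stroke in wild-type dura had 2352, and 1371 to 2666, then 332, 1368 and 1440. The average had 2914, 207 with the minimum change and 1913 without the low-Ttr arrays. Deficient against wild-type stroke dura had 565, and 226 to 632, 374 without dim probe sets, 1743 with array weights, then 63, 95 and 222. Engrafted against wild-type stroke dura had 89, and 29 to 333, 199 with array weights, then 13, 28 and 0. The naive and interaction counts, at most 76, ranged from 0 to 305.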

Other observations

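C1ra moved opposite to 6 of the other members after stroke in the average, while its correlations with them within groups were above 0. That sign is not particular to C1ra. Within groups every pair of measured members correlated above 0, from 0.15 for C1qb with C1ra to 0.86 for C1qa with C1qc. After removal of group means, its Pearson correlation over the 18 arrays was 0.44 with C4b, 0.47 with C3ar1 and 0.66 with C5ar1, against -0.60, -0.54 and -0.42 before that removal. With C1qa, C1qb and C1qc it was 0.55, 0.15 and 0.40 after the removal, against -0.26, -0.19 and -0.17 before it, and with Cfb 0.45 and 0.40. The pattern was noticed in these data and describes 18 arrays that share tissue makeup. Serping1, the C1 inhibitor, correlated by 0.886 within groups with the mean of the C1q chains, and its difference after stroke did not pass in any of the 4 stroke comparisons.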
